A study of Homo sapiens with 22 samples.

Results

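BRCA2 depletion in cells that received neither a GSK3 inhibitor nor an siRNA against β-catenin was examined by RNA-seq in 5 of the 22 libraries of the study. The 5 libraries were taken by their labels, 2 from BRCA2-proficient and 3 from BRCA2-deficient cultures, and every gene of the table was considered. The study asked how accumulated β-catenin changes transcription in cells with and without BRCA2, and the comparison described here is its baseline, the effect of BRCA2 depletion alone. All cells were H1299, an established human non-small cell lung carcinoma line, carrying an shRNA against BRCA2 whose expression is induced by doxycycline (DOX). BRCA2-deficient cells had 2 µg/mL DOX in their medium for 3 days, BRCA2-proficient cells had none, both were transfected with the same non-targeting control siRNA, and neither received the GSK3 inhibitor LY2090314. DOX, the hairpin and the loss of BRCA2 were therefore present together or absent together, and since no culture given DOX without the hairpin is among the samples, their effects cannot be told apart.

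BRCA2 is a central factor of homologous recombination, the accurate repair of double-strand breaks. It also protects stalled replication forks from degradation. Cells without it accumulate damage during replication and mis-segregate chromosomes, and inherited loss of 1 copy predisposes to breast and ovarian cancer. ATF4, which recurs below, is the transcription factor of the integrated stress response. Its translation rises when amino acids are scarce or unfolded proteins accumulate, and it drives genes for amino acid import and synthesis.

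The 5 libraries held 18940000 to 23970000 counts, and BRCA2-deficient replicate 1 had the lowest total of all 22 libraries. BRCA2-proficient replicates 2 and 3 lay close together, with a chi-square per gene of 11.8, against 26.6 to 52.2 between pairs of BRCA2-deficient replicates, so all pairs differed by more than counting error. The first principal component held 59.6% of the variance and set the libraries in the order BRCA2-deficient replicates 1, 2 and 3, followed by both BRCA2-proficient libraries. Counts from mitochondrial DNA took 0.813% of BRCA2-deficient replicate 2 and 1.20 to 1.88% of the other libraries. The study describes the replicates as independent experiments, whilst the labels only number them, so p-values measure the spread between these samples. Among markers of the cell type, VIM stood at 1210 to 1570 CPM (counts scaled to library size), KRT18 at 339 to 575 CPM and KRT8 at 188 to 364 CPM, whilst the epithelial genes CDH1 and EPCAM reached at most 0.0959 and 0.815 CPM. The lung factor NKX2-1 stood at 1.82 to 2.85 CPM, and the leukocyte gene PTPRC and the surfactant gene SFTPA1 had no count.

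BRCA2 itself lies on the plus strand of chromosome 13 (GRCh37, chr13:32889223-32974405). It had 786 and 645 normalised counts (counts divided by the DESeq2 size factor of the library) in BRCA2-proficient replicates 2 and 3, and 64.2, 106 and 166 in BRCA2-deficient replicates 1, 2 and 3. The groups did not overlap, and the BRCA2-deficient replicates differed from each other in the extent of depletion. The log2 fold change, here always BRCA2-deficient over BRCA2-proficient, was -2.67 ± 0.34 (SE; DESeq2 Wald test, adjusted p = 2.77e-12), a level 6.37-fold lower. BRCA2 overlaps ZAR1L on the other strand. None of 6 genes tested around BRCA2 was called, and their log2 fold changes ran from -0.43 to 0.98 with a median of -0.04. Of these, the cohesin regulator PDS5B had a log2 fold change of -0.20 (adjusted p = 0.729) and N4BP2L2 of -0.17 (adjusted p = 0.667).

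Genes were called at an adjusted p (DESeq2 Wald test, Benjamini-Hochberg) under 0.05 together with a log2 fold change above 0.5 or under -0.5. Of 17157 genes tested, 1185 were called (6.91%), 475 higher (2.77%) and 710 lower (4.14%) in BRCA2-deficient cells. Protein-coding genes were called in 8.29% of 13313 and long non-coding RNAs in 2.03% of 1970. The median log2 fold change over all genes was 0.00. The number called depended on single libraries: it was 460 without BRCA2-deficient replicate 2, 2161 without BRCA2-deficient replicate 3, 181 without BRCA2-proficient replicate 2 and 227 without BRCA2-proficient replicate 3, and edgeR's quasi-likelihood test called 326 genes (1.9%). The genes described first are therefore those called in the same direction by DESeq2, by edgeR and in each fit that left out 1 of the 5 libraries. These were 103 genes, 20 higher (0.117% of genes tested) and 83 lower (0.484%), and the groups did not overlap for any of them. Non-overlap alone was common, at 40.1% of all genes tested. In the plot of fold change by level most of these genes lie at the outer edge of those called.

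**Figure D1:**
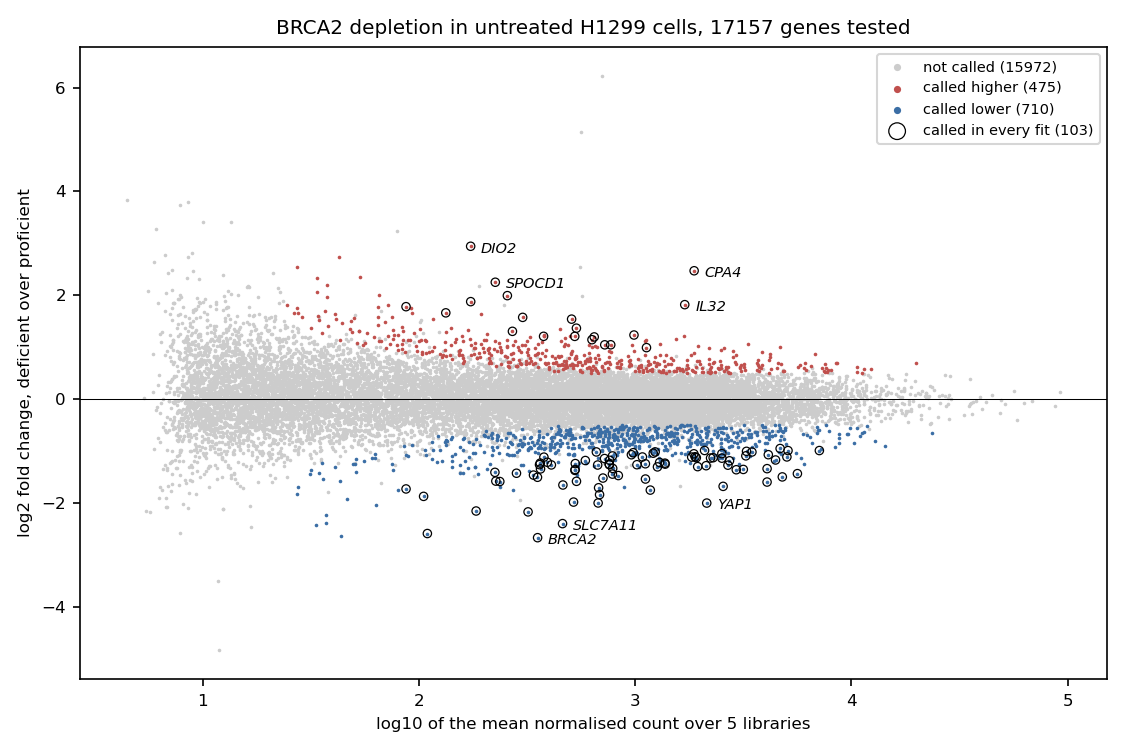
Each point is 1 of 17157 genes, with its mean normalised count over the 5 libraries on a log10 scale (x) and its log2 fold change, BRCA2-deficient over BRCA2-proficient (y). Called genes are coloured, and the 103 called in every fit are circled, among which DIO2 and CPA4 are highest and BRCA2 is lowest.

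Of the 12 largest increases, CPA4, DIO2 and IL32 are given first. CPA4, a secreted carboxypeptidase, had 530 and 476 normalised counts in the BRCA2-proficient and 2834, 2930 and 2591 in the BRCA2-deficient libraries. Its log2 fold change of 2.47 ± 0.16 (adjusted p = 5.51e-47) had the lowest adjusted p among the 12 genes named for the largest increases. DIO2, the deiodinase that activates thyroid hormone, had 36.6 and 32.7 normalised counts without DOX and 215, 295 and 287 with it (log2 fold change 2.94 ± 0.30, adjusted p = 1.35e-19). IL32, a pro-inflammatory cytokine, had 626 and 721 against 2214, 2360 and 2551 (log2 fold change 1.82 ± 0.17, adjusted p = 3.07e-23). In each of these genes the 3 BRCA2-deficient libraries stood well above both BRCA2-proficient ones, and BRCA2-deficient replicate 3, which kept the most BRCA2, was the highest for IL32. SPOCD1, known for its part in silencing transposons in the male germ line, was higher by 2.25 ± 0.40 but spread widely, at 322, 174 and 493 normalised counts against 56.0 and 82.2.

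The others of the 12 rose by between 1.21 and 1.99 on the log2 scale. VSTM2L, an immunoglobulin-domain protein, had 449, 381 and 267 normalised counts in BRCA2-deficient cells against 87.2 and 96.4. The pentraxin receptor NPTXR was even across its group, at 243, 246 and 245 against 68.9 and 64.5. TNFRSF1B, a receptor for tumour necrosis factor, and MR1, which presents microbial vitamin B metabolites to T cells, rose by 1.66 ± 0.27 and 1.57 ± 0.24. Also higher were FBLIM1, an adaptor between filamin and cell adhesions (1.37 ± 0.20), the long non-coding RNA PSMG3-AS1 (1.30 ± 0.21), KDELR3, a receptor that returns proteins to the endoplasmic reticulum (1.23 ± 0.17), and the annexin ANXA3 (1.21 ± 0.19).

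The 12 largest decreases, BRCA2 aside, included genes of signalling, DNA repair and amino acid supply. YAP1, the co-activator at the end of the Hippo pathway, had 3866 and 3925 normalised counts in the BRCA2-proficient and 735, 1043 and 1134 in the BRCA2-deficient libraries (log2 fold change -2.00 ± 0.22, adjusted p = 5.08e-17). CARNMT1, which methylates carnosine, had 1268 and 1184 against 251, 276 and 389 (log2 fold change -2.00 ± 0.23, adjusted p = 5.20e-15). ARL6IP6, a membrane protein, had 984 and 897 against 197, 245 and 270 (log2 fold change -1.99 ± 0.21, adjusted p = 1.94e-18). In all 3 genes BRCA2-deficient replicate 1 was lowest and replicate 3 highest of its group, the order also seen for BRCA2 and along the first principal component. DCLRE1A, a nuclease that repairs DNA interstrand cross-links, had 862 and 707 against 197, 260 and 289 (log2 fold change -1.66 ± 0.23). GNB4, a β subunit of heterotrimeric G proteins, fell by 1.71 and TMEM254 by 1.88 on the log2 scale. The counting is not stated to use strand, so reads of genes that overlap on opposite strands may be mixed. Of the 24 genes named here for the largest changes, 12 overlap an annotated gene on the other strand, as do 8751 of 17157 genes tested. Among the 12 are DIO2, SPOCD1, IL32, GNB4, CARNMT1, TMEM254 and ARL6IP6.

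**Figure D2:**
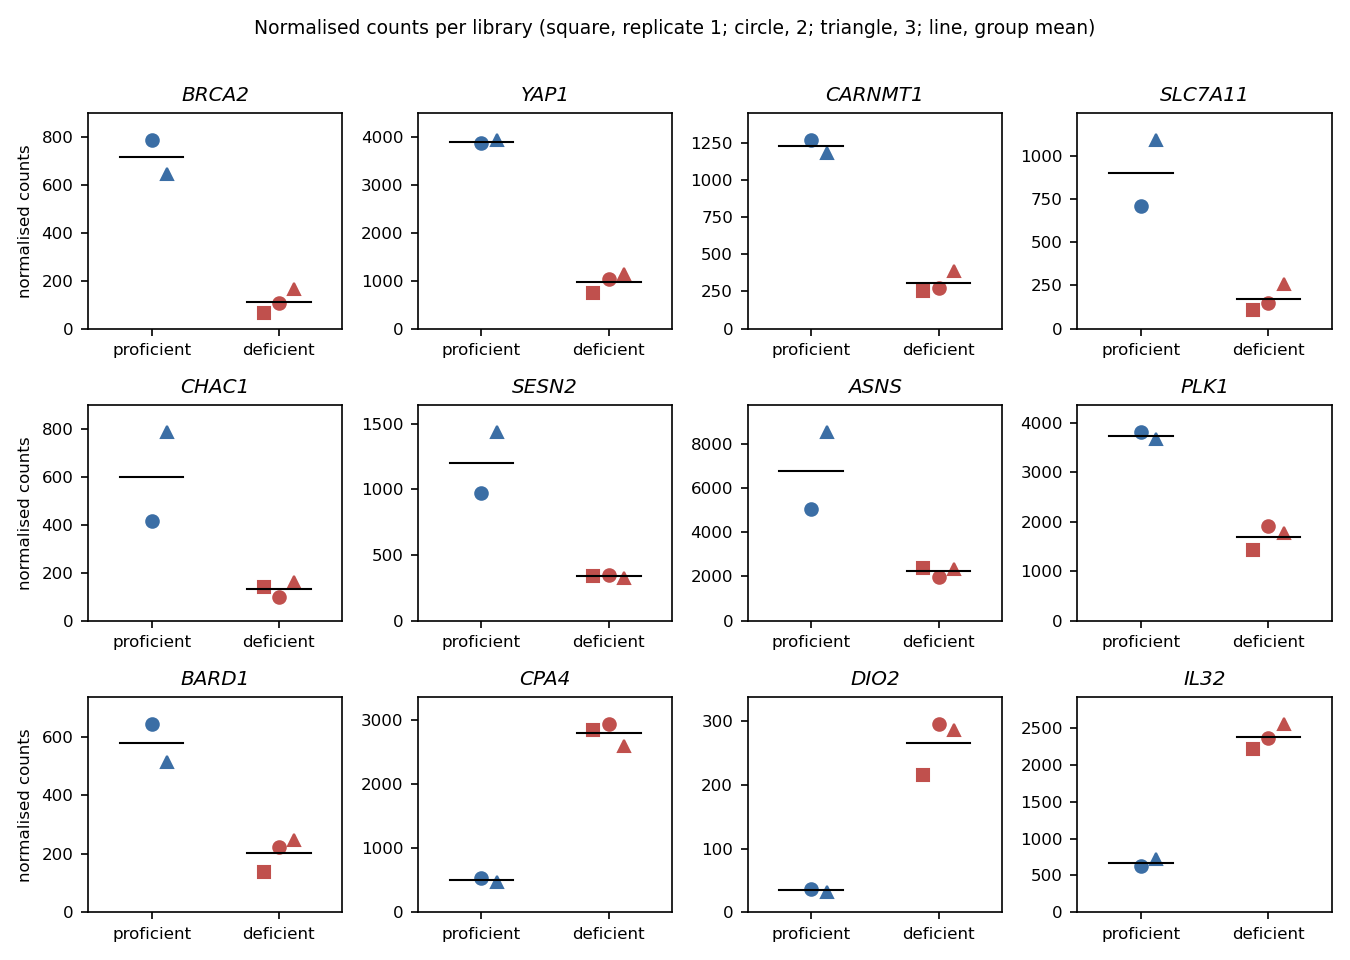
Normalised counts of 12 genes in each of the 5 libraries (y, linear from 0), grouped as BRCA2-proficient (blue, 2 libraries) and BRCA2-deficient (red, 3 libraries), with the group mean as a line. The groups do not overlap in any panel, and the 2 BRCA2-proficient libraries lie far apart for SLC7A11, CHAC1, SESN2 and ASNS.

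The remaining 6 of the 12 largest decreases were all genes of the ATF4 response and amino acid supply. SLC7A11, which imports cystine for glutathione synthesis, had 707 and 1089 normalised counts in BRCA2-proficient and 106, 148 and 255 in BRCA2-deficient cells (log2 fold change -2.40 ± 0.35, adjusted p = 2.34e-09). CHAC1, an enzyme that breaks down glutathione, had 414 and 785 against 140, 97.8 and 161 (log2 fold change -2.17 ± 0.32, adjusted p = 6.04e-09). SESN2, an inhibitor of mTORC1 that senses leucine, had 972 and 1438 against 337, 348 and 324 (log2 fold change -1.84 ± 0.22, adjusted p = 7.82e-14). BRCA2-proficient replicate 3 was the highest library for each, and the BRCA2-deficient libraries lay close together for SESN2. The pseudokinase TRIB3 fell by 1.75 (SE 0.31), the leucine importer SLC7A5 by 1.68 (SE 0.21) and asparagine synthetase, ASNS, by 1.60 (SE 0.24) on the log2 scale.

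The list was lower as a whole by count and median. Of 37 tested genes of the ATF4 response and amino acid supply, 22 were lower and 0 higher, with a median log2 fold change of -0.83, where 4.14% of all genes were lower. Serine and glycine synthesis was among them, with PSAT1 at 4353 and 5612 normalised counts against 1938, 1907 and 1991 (log2 fold change -1.36 ± 0.17, adjusted p = 8.48e-12) and PHGDH at a log2 fold change of -1.20 (adjusted p = 6.52e-05). ATF4 mRNA was lower by 0.62 (adjusted p = 0.0188), and the stress cytokine GDF15 had 25.9 and 149 against 21.4, 11.8 and 9.49 (log2 fold change -2.63 ± 0.67, adjusted p = 0.00304), both calls lost in edgeR. The factors DDIT3 (-1.07, adjusted p = 0.36) and ATF3 (-1.17, adjusted p = 0.0772) did not pass the test. The median of the list, relative to the BRCA2-proficient mean, was -0.75, -0.83 and -0.68 in BRCA2-deficient replicates 1, 2 and 3 and -0.23 and 0.23 in BRCA2-proficient replicates 2 and 3, so the BRCA2-proficient libraries themselves differed in these genes. Without BRCA2-proficient replicate 3, 8 members were lower, and edgeR called 11. In contrast, endoplasmic reticulum chaperones and genes of the unfolded protein response gave 1 higher gene (DNAJB9, 0.55) and 1 lower gene (ERN1, -0.89) of 20, with a median of -0.09. The call of each was lost in edgeR.

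ATF4 binds composite elements with the core TGATGNAA. RefSeq promoter windows around the transcription start (GRCh38.p14) were searched for this core on either strand. It was found in 1.76% of 11706 promoters of all genes tested, 2.86% of 560 called lower and 1.99% of 352 called higher. In the list it stood in 21.9% of 32 promoters, and in 15.8% of the 19 of members called lower. The list holds genes known for this response, so its share describes the list and is not a result of these data. ASNS and CHAC1 each held 1 match, whilst SESN2 and TRIB3 held none in this window. The promoters of ASNS (chr7:97872359-97872658, minus strand) and CHAC1 (chr15:40953221-40953520, plus strand) are shown as examples with the match in capitals.
ASNS: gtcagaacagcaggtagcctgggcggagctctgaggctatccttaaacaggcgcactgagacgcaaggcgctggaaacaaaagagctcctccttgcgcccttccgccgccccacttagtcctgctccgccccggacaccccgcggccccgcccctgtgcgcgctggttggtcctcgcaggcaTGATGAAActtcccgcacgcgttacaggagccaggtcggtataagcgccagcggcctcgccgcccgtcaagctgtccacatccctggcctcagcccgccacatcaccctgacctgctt
CHAC1: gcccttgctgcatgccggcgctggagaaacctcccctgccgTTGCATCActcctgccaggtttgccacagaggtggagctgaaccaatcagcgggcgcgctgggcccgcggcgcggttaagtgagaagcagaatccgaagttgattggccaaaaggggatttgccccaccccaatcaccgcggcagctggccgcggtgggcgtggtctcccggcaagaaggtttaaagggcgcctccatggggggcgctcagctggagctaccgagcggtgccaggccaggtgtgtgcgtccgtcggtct

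Genes of mitosis were lower almost throughout. In bulk RNA, fewer cells of a kind, such as cells in mitosis, and less RNA per cell cannot be told apart. All 42 genes of the list were tested, 38 were called lower (90.5%) and 0 higher, and the median log2 fold change was -0.94. Among all genes tested 4.14% were called lower. PLK1, the kinase that drives mitotic entry and spindle formation, had 3813 and 3669 normalised counts in BRCA2-proficient against 1419, 1910 and 1764 in BRCA2-deficient libraries (log2 fold change -1.14 ± 0.18, adjusted p = 1.64e-07). CENPF, a kinetochore protein of late cell cycle, had 6561 and 6230 against 1566, 2645 and 3354 (log2 fold change -1.34 ± 0.28, adjusted p = 1.68e-04). The mitotic kinesin KIF20A fell by 1.28 (SE 0.22) and separase, ESPL1, by 1.12 (SE 0.21) on the log2 scale. CDC20, an activator of the anaphase-promoting complex, FOXM1, a transcription factor of late cell cycle genes, and the spindle protein PRC1 were also called in every fit, and the log2 fold changes of CDC20 and FOXM1 were -0.95 and -0.99. The list median was -1.26, -0.79 and -0.79 in BRCA2-deficient replicates 1, 2 and 3 and 0.09 and -0.09 in the BRCA2-proficient libraries. The number called lower was 7 without BRCA2-proficient replicate 2 and 20 without BRCA2-proficient replicate 3, and edgeR called 23.

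DNA replication genes were lower to a smaller extent. Of 49 genes, 25 were called lower (51.0%, against 4.14% of all genes tested) and 0 higher, with a median log2 fold change of -0.61. ORC1, the largest subunit of the origin recognition complex, had 839 and 675 normalised counts against 282, 397 and 394 (log2 fold change -1.08 ± 0.23, adjusted p = 1.50e-04). The replicative ligase LIG1 had 1873 and 1735 against 995, 906 and 872 (log2 fold change -0.97 ± 0.16, adjusted p = 5.04e-07). None of the 49 kept its call in every fit: without BRCA2-proficient replicate 2 none passed and without BRCA2-proficient replicate 3, 10 did, whilst edgeR called 11. The median of the list was -0.76, -0.58 and -0.45 in BRCA2-deficient replicates 1, 2 and 3.

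The CHR element, TTTGAA or TTCGAA in the forms searched, recruits the DREAM and MuvB complexes to promoters of late cell cycle genes. It was found on either strand in 71.4% of 35 promoters of the mitosis list, in 4.76% of 42 promoters of the replication list and in 11.2% of promoters of all genes tested. Promoters of genes called lower held it in 23.6% of 560, those of genes called higher in 10.5% of 352. These shares describe letters in the windows and not a binding event. The mitosis list holds genes known for late cell cycle, so its share describes the list and is not a result of these data. Of the 132 promoters with the element among genes called lower, 24 belonged to the mitosis list. KIF20A held no match in its window. CDC20 (chr1:43358731-43359030, plus strand) held 2 matches and PLK1 (chr16:23678639-23678938, plus strand) held 1, shown in capitals.
CDC20: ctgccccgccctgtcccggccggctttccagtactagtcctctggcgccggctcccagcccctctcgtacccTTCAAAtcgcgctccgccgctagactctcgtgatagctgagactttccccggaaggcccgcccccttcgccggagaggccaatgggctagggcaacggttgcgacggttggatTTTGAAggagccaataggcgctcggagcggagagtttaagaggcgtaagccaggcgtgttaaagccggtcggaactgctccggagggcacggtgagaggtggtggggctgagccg
PLK1: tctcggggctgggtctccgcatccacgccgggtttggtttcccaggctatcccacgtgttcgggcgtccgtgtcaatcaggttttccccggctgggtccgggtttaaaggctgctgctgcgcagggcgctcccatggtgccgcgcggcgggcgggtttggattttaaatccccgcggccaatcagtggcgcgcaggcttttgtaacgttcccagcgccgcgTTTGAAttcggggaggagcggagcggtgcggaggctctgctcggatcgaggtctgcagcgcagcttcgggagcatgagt

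Regulators of G1 were called in both directions, but the higher calls did not hold in edgeR. Of 24 genes of this list, 7 were lower and 2 higher (CCNE1 and CDKN2B, the latter at 0.53), with a median of -0.37. Of all genes tested, 4.14% were lower and 2.77% higher. edgeR called 3 of the list lower and 0 higher. E2F8, a repressor of E2F targets, had 455 and 335 normalised counts against 104, 151 and 138 (log2 fold change -1.59 ± 0.26, adjusted p = 2.16e-07). CDK6, the partner kinase of D-type cyclins, had 8886 and 9208 against 2082, 3051 and 4883 (log2 fold change -1.44 ± 0.30, adjusted p = 1.73e-04). Cyclin E, CCNE1, was higher, at 641, 529 and 724 against 434 and 369 (log2 fold change 0.65 ± 0.21, adjusted p = 0.0302), a call that was lost without any 1 library other than BRCA2-deficient replicate 1 and in edgeR. CDKN1A, which encodes p21, had 909 and 1499 normalised counts in BRCA2-proficient and 1309, 974 and 1178 in BRCA2-deficient libraries. Its groups overlapped, and the log2 fold change was -0.06 ± 0.25 (adjusted p = 0.923). CCND1 (0.10, adjusted p = 0.8) and MYC (-0.01, adjusted p = 0.987) did not pass the test either, whilst CDC6, which loads the replicative helicase, was lower by 0.73 (SE 0.19, adjusted p = 0.00393), a call lost in edgeR and without BRCA2-deficient replicate 2 or either BRCA2-proficient library.

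**Figure D3:**
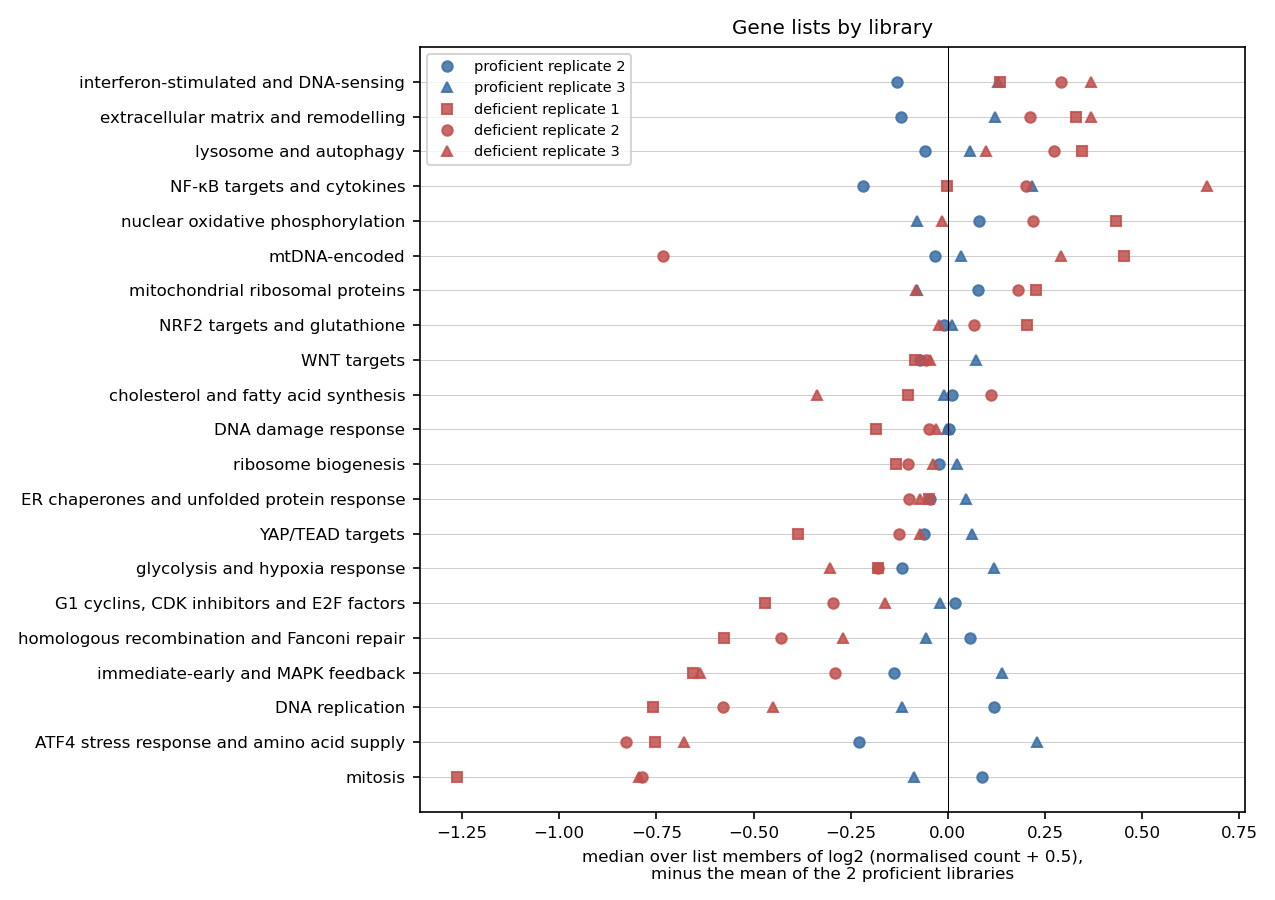
Median over the members of each of 21 gene lists (y) of the log2 normalised count plus a pseudocount of 0.5, relative to the mean of the 2 BRCA2-proficient libraries (x), with 1 point per library. Many lists lie below both BRCA2-proficient libraries in all 3 BRCA2-deficient libraries. Mitosis, ATF4 response and DNA replication are among them, as are homologous recombination, G1 regulators and immediate-early genes. The mtDNA-encoded genes are split, with BRCA2-deficient replicate 2 at -0.73.

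Genes of homologous recombination and the Fanconi pathway, the route in which BRCA2 acts, were called lower in 5 of 37 cases. None was called higher, and the median was -0.41. The share called lower was 13.5%, against 4.14% of all genes tested. BARD1, the partner of BRCA1, had 643 and 514 normalised counts against 138, 222 and 249 (log2 fold change -1.51 ± 0.28, adjusted p = 6.44e-06), and it was the only member called in every fit. The helicase BLM (-1.02), BRCA1 (-0.84), FANCI (-0.72) and RAD51B (-0.58) were also lower, each with its call lost in edgeR. The number called lower ran from 1, without BRCA2-deficient replicate 2 or either BRCA2-proficient library, to 16 without BRCA2-deficient replicate 3. Of 25 DNA damage response genes of the p53 type, 2 were higher and 2 lower (SESN2 and TP53INP1), with a median of -0.05. Each count was 8% of the list, where 2.77% of all genes tested were called higher and 4.14% lower. The higher genes were PLK2, a Polo-like kinase, at 1.21 and TP53I3, a quinone oxidoreductase, at 0.84. In edgeR only SESN2 of these 4 kept its call. The paper describes H1299 cells as lacking p53 function.

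Of 30 genes of the extracellular matrix and its remodelling, 7 were called higher (23.3%) and 1 lower (3.33%), with a median of 0.30. By edgeR 1 was called higher and 0 lower. Among all genes tested 2.77% were called higher and 4.14% lower. SPARC, a secreted collagen-binding protein, had 169 and 252 normalised counts against 446, 563 and 470 (log2 fold change 1.22, adjusted p = 3.86e-05), and TGFBI had 2281 and 3543 against 6553, 4575 and 6436 (log2 fold change 1.01, adjusted p = 0.00178). The collagenase MMP1 was higher by 1.76 (adjusted p = 0.022), a call lost in edgeR and in every fit without 1 library. The proteoglycan VCAN was lower by 1.32 (adjusted p = 0.00139), lost in edgeR and without either BRCA2-proficient library. No member was called higher without BRCA2-proficient replicate 2, and 2 were without BRCA2-proficient replicate 3. Lysosomal genes gave 5 higher (17.2%) and 1 lower (3.45%) of 29, with a median of 0.26. The saposin precursor PSAP had 13630 and 15100 against 24930, 23430 and 21790 (log2 fold change 0.70), and the cathepsin CTSB was higher by 0.55, a call lost in edgeR. edgeR called 1 lysosomal gene higher, and without either BRCA2-proficient library 0 were. The catalytic subunit of the proton pump, ATP6V1A, went the other way and was called in every fit, with 2168 and 2025 against 872, 1029 and 769 (log2 fold change -1.24 ± 0.19, adjusted p = 1.78e-08).

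YAP1 was among the 12 largest decreases, whilst few genes known as targets of YAP and TEAD were called. Of 21, 1 was higher (ANKRD1, 1.15) and 2 were lower (LATS2, -0.78, and CCN2, -0.69), with a median of -0.16, and all 3 calls were lost in edgeR. The shares, 4.76% higher and 9.52% lower, lie near those of all genes tested, 2.77% and 4.14%. CCN1 was at -0.15 (adjusted p = 0.75). Among 12 WNT targets, DKK1, a secreted WNT antagonist, was higher, with 846, 464 and 470 normalised counts against 206 and 257 (log2 fold change 1.36 ± 0.30, adjusted p = 3.74e-04), lost in edgeR and without BRCA2-proficient replicate 2. DKK1 was the only member called, 8.33% of the list. AXIN2 (-0.33, adjusted p = 0.601), LEF1 (-0.42, adjusted p = 0.57), SOX4 (0.02, adjusted p = 0.966) and TCF7 (-0.08, adjusted p = 0.866) did not pass. CTNNB1, which encodes β-catenin, had 6939 and 6921 against 5676, 7905 and 7274 (log2 fold change 0.00, adjusted p = 0.993). The genes of the kinase that marks β-catenin for degradation, GSK3A and GSK3B, were at -0.19 (adjusted p = 0.588) and -0.20 (adjusted p = 0.654).

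Other lists held few called genes, beside 2.77% of all genes tested called higher and 4.14% called lower. Interferon-stimulated and DNA-sensing genes gave 1 higher of 26 (OASL, 1.66, lost in edgeR and without BRCA2-proficient replicate 2) with a median of 0.31, and NF-κB targets and cytokines 1 higher of 15 (NFKBIA, 0.67, lost in edgeR) with a median of 0.23. Immediate-early and MAPK feedback genes gave 4 lower of 22, led by the transcription factor ETV1 (-0.91) and the feedback inhibitor SPRY4 (-0.89), with a median of -0.47. edgeR called 2 of this list, SPRY4 not among them, ETV1 and SPRY4 lost their calls without either BRCA2-proficient library, and 0 members were called without BRCA2-proficient replicate 3. Among NRF2 targets, haem oxygenase HMOX1 was higher (0.83, adjusted p = 5.35e-04, lost without either BRCA2-proficient library) and SLC7A11 lower, of 24 genes with a median of 0.07. Cholesterol and fatty acid synthesis gave 1 higher (MSMO1, 0.72) and 2 lower (CYP51A1, -1.01, and IDI1, -1.19 ± 0.23, called in every fit) of 32, with a median of -0.03, and the calls of MSMO1 and CYP51A1 were lost in edgeR. Glycolysis and hypoxia genes gave 4 lower and 1 higher of 26, with PDK1 at -0.92 and HK2 at -0.85, a median of -0.18, and no call in edgeR for either gene. Ribosome biogenesis gave 1 lower of 20 (POLR1B, -0.93, lost in edgeR) and a median of -0.09.

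DOX can inhibit the mitochondrial ribosome, so transcripts of mitochondria were examined as a group. None of 13 mtDNA-encoded genes, 76 mitochondrial ribosomal proteins and 74 nuclear genes of oxidative phosphorylation was called, with medians of 0.16, 0.10 and 0.21. Of the nuclear genes of oxidative phosphorylation, 6 of 74 had a log2 fold change below 0, and their median was 0.43, 0.22 and -0.01 in BRCA2-deficient replicates 1, 2 and 3. The mtDNA-encoded genes stood at 0.45, -0.73 and 0.29 in the same libraries, so replicates of 1 group differed more than the groups did. In edgeR 0 members of these 3 lists were called as well. Without BRCA2-deficient replicate 3, 6 nuclear genes of oxidative phosphorylation and 4 mitochondrial ribosomal proteins were higher and 1 mtDNA-encoded gene was lower, and without BRCA2-deficient replicate 2, 1 mtDNA-encoded gene was higher.

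Short words in the 3′UTR were then examined for the genes that carried them. Of 11806 genes with a mean of at least 100 normalised counts, 10899 had an annotated 3′UTR (GENCODE v44 on GRCh37, longest per gene). Each of 16322 words of 7 letters was ranked by the mean log2 fold change of the genes whose 3′UTR held it, after the trend with 3′UTR length and base composition had been removed, and scaled by the number of genes. The lowest was CAGATTA, held by 1526 genes with a mean of -0.10, and the next was AGATTAA, which overlaps it. Together they spell the 8-letter word CAGATTAA, held by 508 genes. Since the word was chosen for its place in these values, what follows in untreated cells is a description, with no test.

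Genes without the 8-letter word had a median log2 fold change of -0.01 (10391 genes), those with 1 copy -0.26 (478 genes) and those with 2 or more -0.43 (30 genes). For the 7-letter word the medians were 0.01, -0.19 and -0.27. Its reverse complement, TAATCTG, which has the same share of each base pair, gave 0.00, -0.13 and -0.18. Longer 3′UTRs went with lower fold changes in general, but within each of 4 classes of 3′UTR length the genes with the 8-letter word were lower, at -0.26, -0.22, -0.29 and -0.26 from the shortest to the longest class against 0.10, 0.03, -0.05 and -0.13 without it. In BRCA2-deficient replicates 1, 2 and 3, the median of genes with the word minus that of genes without it was -0.51, -0.24 and -0.13. BRCA2 depletion and the first principal component followed the same order. So did the medians of the replication list, at -0.76, -0.58 and -0.45, where 4.08% of genes held the word. What the order reflects was not tested. Genes that held the word only upstream of the 3′UTR had a median of -0.24 (178 genes), against -0.01 for 10213 genes that held it nowhere. This last contrast was not adjusted for transcript length.

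The 7-letter word stood in 14.0% of all genes examined, in 31.2% of those called lower and in 3.38% of those called higher. Its reverse complement stood in 14.3%, 17.1% and 8.83% of the same sets. Their median 3′UTR lengths were 1977, 2340 and 1499 bases, and these shares were not matched for length. Among genes called lower in every fit it stood in 51.9% of 77, and the 8-letter word in 27.3%, against 4.66% of all genes examined. Of the lists above, 0 of 42 mitosis genes, 2 of 49 replication genes (4.08%) and 3 of 36 genes of the ATF4 response (8.33%) held the 8-letter word. Of the 12 genes with the largest decreases, YAP1, CARNMT1, ARL6IP6 and SLC7A11 held it, and SESN2 and TMEM254 held the 7-letter word alone. BARD1 held the 7-letter word at 2 places. BRCA2 has no copy in its 3′UTR and holds the 7-letter word at 2 places in its coding sequence, 1 of them followed by the A that completes the 8 letters. The sites are shown on GRCh37 and read along the transcript, with the word in capitals (7 letters for BRCA2, 8 for the others) and 7 bases on either side. They lie at chr13:32912620-32912640 and chr13:32913608-32913628 (plus strand, BRCA2), chr11:102102200-102102221 and chr11:102102937-102102958 (plus strand, YAP1), chr9:77597977-77597998 and chr9:77597443-77597464 (minus strand, CARNMT1), chr2:153616539-153616560 (plus strand, ARL6IP6) and chr4:139092004-139092025 (minus strand, SLC7A11).
BRCA2, coding, first site: aaacactCAGATTAaagaaga
BRCA2, coding, second site: aatactgCAGATTAtgtagga
YAP1, 3′UTR, first site: aagtgatCAGATTAAtaaatgt
YAP1, 3′UTR, second site: gtagccaCAGATTAAgattata
CARNMT1, 3′UTR, first site: tatcattCAGATTAAtttaatt
CARNMT1, 3′UTR, second site: gtaatttCAGATTAAtaccaat
ARL6IP6, 3′UTR: taagataCAGATTAAttgggaa
SLC7A11, 3′UTR: aactgtcCAGATTAAttaggaa

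A small hairpin RNA is cut into a guide that pairs with its target along its length, and guides, like microRNAs, can also lower other transcripts that match their seed, bases 2 to 8 of the guide. The guide of the hairpin is not given in the sources used here and was not compared with the word, so its part in these values was not tested. The libraries of the other groups, which the untreated comparison did not use, allowed the word to be read again. It ranked lowest of 16322 words in BRCA2-deficient over BRCA2-proficient cells under GSK3i, under siβ-catenin and under both. The medians for 0, 1 and 2 or more copies of the 8-letter word were -0.02, -0.22 and -0.34 under GSK3i, -0.08, -0.38 and -0.70 under siβ-catenin, and -0.02, -0.22 and -0.33 under both. The hairpin and DOX were part of each of these comparisons too.

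**Figure D4:**
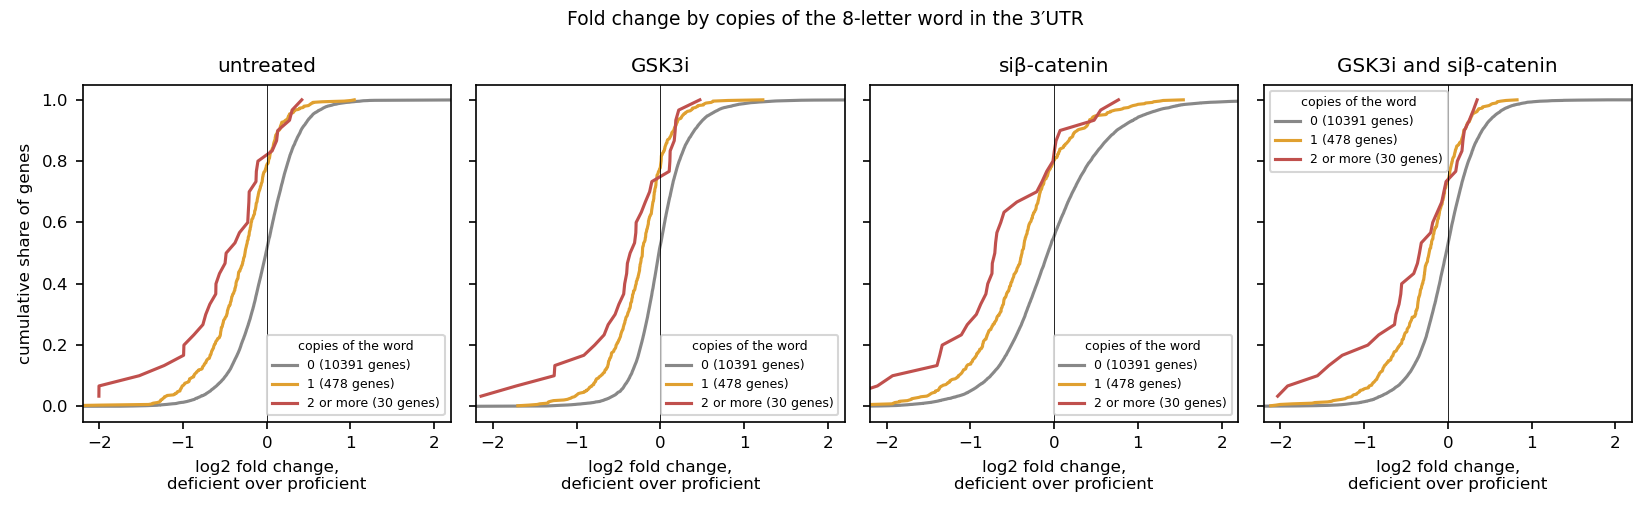
Cumulative share of genes (y) by log2 fold change, BRCA2-deficient over BRCA2-proficient (x), for genes with 0, 1 or 2 or more copies of the 8-letter word in the 3′UTR, in 4 comparisons that share no library. The curves for 1 copy (478 genes) and for 2 or more (30 genes) lie to the left of that for 0 copies (10391 genes) over most of each panel.

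The genes called in untreated cells were then followed in the other 3 comparisons of BRCA2 depletion, which share the cell line, hairpin and DOX with the untreated comparison but none of its libraries. The share of all genes called there was 6.81% of 16336 under GSK3i, 27.4% of 17813 under siβ-catenin and 7.74% of 17046 under both. Of the genes called higher in untreated cells, 99.1% of 467, 98.3% of 475 and 95.8% of 475 had the same direction, against 74.6%, 71.6% and 71.0% of all genes. Of those called lower, 98.0% of 709, 96.2% of 710 and 97.7% of 710 did. In the same direction and called were 54.4%, 78.9% and 36.2% of the higher and 46.0%, 77.5% and 58.6% of the lower genes. All 83 genes called lower in every fit had a log2 fold change below 0 in all 3 comparisons. Of the 20 called higher in every fit, 20, 18 and 20 kept their direction under GSK3i, siβ-catenin and both, and 18, 18 and 13 were called. In all 4 comparisons 359 genes were called in 1 direction, 129 higher and 230 lower. Among them were CPA4 (2.47, 1.83, 2.38 and 1.91 in untreated cells, under GSK3i, under siβ-catenin and under both), YAP1 (-2.00, -1.72, -2.11 and -2.03) and CARNMT1 (-2.00, -2.14, -2.48 and -1.91).

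**Figure D5:**
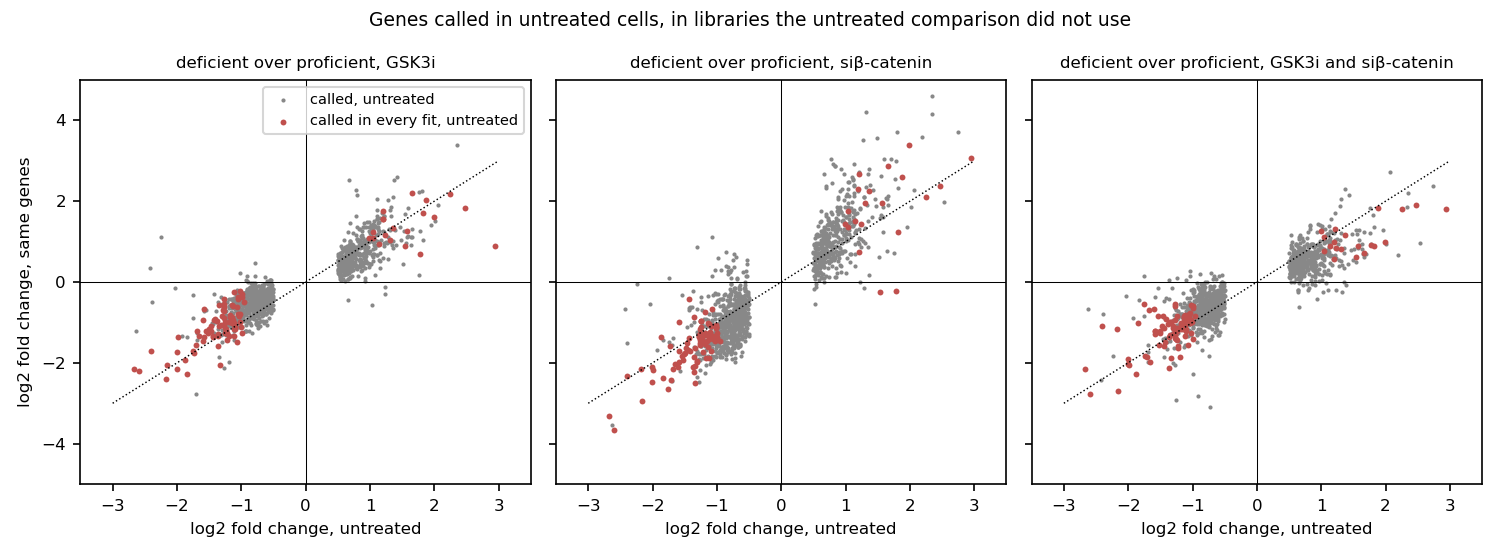
Log2 fold change, BRCA2-deficient over BRCA2-proficient, of the 1185 genes called in untreated cells (x) and of the same genes under GSK3i, siβ-catenin or both (y), with genes called in every untreated fit in red and equality dotted. Nearly all points lie in the quadrants of equal sign.

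Calls in the lists were not alike across these comparisons, and neither was the share of all genes called. That share was 6.91% in untreated cells, 6.81% under GSK3i, 27.4% under siβ-catenin and 7.74% under both. Mitosis genes had a median of -0.42 with 10 of 42 lower under GSK3i, -1.38 with 41 lower under siβ-catenin and -0.80 with 36 lower under both, beside -0.94 with 38 in untreated cells. Replication genes had 2, 46 and 20 of 49 lower, beside 25. Genes of the ATF4 response had 24 of 37 lower under GSK3i (median -0.72), 13 under siβ-catenin (median -1.09) and 6 under both (median -0.28), beside 22. Under siβ-catenin the SE was larger, at 0.75 for ASNS and 0.99 for SESN2 against 0.24 and 0.22 in untreated cells. Fewer calls there need not mean smaller changes. Whether a gene responded differently was tested as an interaction. Between untreated and GSK3i-treated cells, 6 of 17381 genes differed (0.0345%), and between control siRNA and siβ-catenin 442 of 17707 (2.5%). The first 6 were all genes called in untreated cells. Of these, DIO2 had log2 fold changes of 2.94 in untreated cells and 0.89 under GSK3i (adjusted p = 0.146), a difference of -2.07 (adjusted p = 0.00269). With the replicate block the first interaction gave 103 genes. edgeR called 0 genes in either interaction, with 610 and 2621 genes at an unadjusted p under 0.05.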

How the data were processed

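The authors deposited raw counts, not normalised, for Ensembl genes in 22 libraries. Per the labels, the authors made strand-specific poly(A) libraries, aligned reads with HISAT2 2.0.4 (build hg19), handled alignments with SAMtools 1.4, removed duplicates with Picard 1.9.2 and counted with featureCounts 1.5.0. Abundant genes lose more counts than others when duplicates are removed. Tool versions are those of the submitters' processing notes, and the study's own software list gives other versions. The strand setting of the counting and the Ensembl release are not given in the sources used here. Of 37908 identifiers, 36479 matched the GENCODE v44 annotation of GRCh37.

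DESeq2 1.42.0 in R 4.3.3 was fitted to the 5 untreated libraries alone (Wald test, two-sided, median-of-ratios size factors, no shrinkage), with genes left out where more than 3 libraries had fewer than 10 counts. The test, thresholds and filter follow the study. Of the 17157 genes, 14493 kept an adjusted p under DESeq2's own filters, and the rest were never called. The other contexts were fitted in the same way on their own libraries, and interactions with a minimum of 10 counts in 3 or more libraries. With a BRCA2-proficient library left out, the remaining one is assumed to vary like the BRCA2-deficient libraries. The alternatives were edgeR 4.0.16, limma 3.58.1 with library weights, other filters, factors and thresholds, 1 model over all groups, a replicate block and each library left out. Same-numbered replicates deviated together (every correlation over 0.1 with 3 pairs: 0.686, 0.139 and 0.62 under GSK3i, 0.34, 0.197 and 0.371 under GSK3i with siβ-catenin), so there the numbers were taken to pair the samples. The untreated groups (0.257 and 0.184) and siβ-catenin groups (-0.00814 and 0.0232) share 2 numbers each, and there the samples were not taken as pairs. All counts of calls, the paired contexts included, are from fits without the block unless the block is named. These counts therefore ignore that pairing. The fits and the ranking of words were tested on simulated data.

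Named genes were BRCA2, the 12 largest increases and 12 largest decreases among genes with a symbol that were called in every fit with a mean of at least 100 normalised counts, list members by the same conditions (mean of at least 20; where a list had none, up to 2 called members), genes the study names, GSK3A, GSK3B and 4 genes known from an earlier look at these data (DIO2, CPA4, SPOCD1 and SLC7A11), and, per interaction, the untreated calls with the lowest adjusted p. List members outside this rule (among them GDF15, PHGDH, SPARC, TGFBI, PSAP, CTSB, HMOX1 and PLK2) and the 3′UTR word were chosen after their values were seen. The comparison, the 22 lists and the rule were chosen with earlier results of these data known. The longest annotated 3′UTR need not be the one used in these cells. Promoter sequences are from RefSeq (GRCh38.p14), and a match is not a binding site.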

Additional observations from a re-analysis of the deposited data

Results flagged for a closer look

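The effect of BRCA2 depletion differed between untreated and GSK3i-treated cells for 4 named genes by DESeq2's test of the interaction. PPL, a cytolinker of desmosomes, had log2 fold changes of 0.67 and 2.52, a difference of 1.82 (adjusted p = 5.84e-08). DIO2 differed by -2.07 (adjusted p = 0.00269). TROAP, a spindle protein, had -1.02 and -0.22, a difference of 0.78 (adjusted p = 3.11e-05), and WDR62, a protein of spindle poles, had -0.81 and -0.02, a difference of 0.77 (adjusted p = 0.00579).

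Between control siRNA and siβ-catenin, 6 named genes differed. EPS8L2, an actin regulator, had 0.70 and 2.34, a difference of 1.64 (adjusted p = 2.44e-04). JUP, the junction protein plakoglobin, had 0.69 and 2.37, a difference of 1.68 (adjusted p = 5.68e-04), and TMEM86A had 0.78 and 3.05, a difference of 2.27 (adjusted p = 5.68e-04). The replication genes CDC6 and GINS1 had -0.73 and -1.99 and -0.63 and -1.84, differences of -1.26 (adjusted p = 2.44e-04) and -1.21 (adjusted p = 0.00129). SSR3, a subunit of the translocon, had 0.53 and -0.55, a difference of -1.08 (adjusted p = 7.44e-04). edgeR called none of these 10 differences. No group held 4 or more libraries, so single outlying samples were not sought.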

How the results depend on the processing

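In untreated cells 1185 genes were called. The count was 326 in edgeR, 60 in a test against a log2 fold change of 0.5 and 1978 in limma with library weights, and it ran from 181 to 2161 as each library was left out. It was 1192 with TMM factors, 1134 with no filter, 1119 in 1 model over all groups and 834 with the replicate block. Of the genes called by edgeR, 322 were also called by DESeq2. Under GSK3i 1112 genes were called, 645 in edgeR, 1266 with the replicate block and 613 to 1302 without 1 library. Under siβ-catenin 4888 were called, 2020 with the replicate block and 2870 to 4883 without 1 library. Under both 1319 were called, 483 in edgeR, 1479 with the replicate block and 748 to 1593 without 1 library. The interaction with GSK3i gave 6 genes, 0 in edgeR, 103 with the replicate block and 2 to 15 without 1 library, and that with siβ-catenin 442, 0 in edgeR and 9 to 1257 without 1 library (9 without BRCA2-proficient untreated replicate 3). The causes were not tested.

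No named gene changed direction in any alternative once called. Of 72 named genes, 22 lost their call in edgeR and 36 in the test against a log2 fold change of 0.5. The 24 genes of the largest changes were chosen as called in edgeR and without any 1 library, and all 24 were also called with the replicate block. Replicate numbers 2 and 3 occur in both untreated groups, the labels do not say that a number marks a shared culture, and the difference between numbers correlated at 0.26 across genes between the groups, so with 2 shared numbers they were not treated as pairs. How far depth limits the calls was not tested.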
